A study of Saccharomyces cerevisiae with 137 samples.

Results

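A set of 10 genes of nitrogen uptake and breakdown was followed in budding yeast (Saccharomyces cerevisiae) through a cold shock and the return to warmth, in 7 strains. The 10 were chosen by name, as their rows in the table of 6178 open reading frames that the authors deposited. They are GLN1 (YPR035W) and GDH1 (YOR375C) for assimilation of ammonium, GAP1 (YKR039W), MEP1 (YGR121C), MEP2 (YNL142W) and MEP3 (YPR138C) for transport, and CAR1 (YPL111W), CAR2 (YLR438W), PUT1 (YLR142W) and DUR1,2 (YBR208C) for breakdown. Cultures in the rich medium YEPD were moved from 30 °C to 13 °C, sampled there at 15, 30 and 60 min (t15, t30, t60), and returned to 30 °C for samples 30 and 60 min later (t90, t120). The strains were the deletion of GLN3 (dGLN3), the deletions dCIN5, dHAP4, dHMO1, dSWI4 and dZAP1, each in the BY4741 background and each lacking 1 transcription factor gene, and wild type (WT). Wild type was BY4741 in 4 flasks and BY4739 in flask 0. All deletion strains were grown with 200 µg/mL of the antibiotic G418 and wild type without it, so an effect of G418 and one of deleting a gene cannot be told apart in any comparison with wild type. There were 137 arrays from 30 flasks: 20 arrays from 5 flasks of dGLN3 (4 per time), 94 arrays of the 5 other deletion strains (4 flasks each) and 23 arrays from 5 flasks of wild type. No dSWI4 array at t15 was analysed here, and dHAP4 had 3 arrays at t90 and at t120. The arrays of wild-type flasks 0 and 1 were GCAT chips, and all others were Ontario chips. Slides were uncoated for dHAP4 and for dSWI4 except its flask 1, and PEG-coated for the rest. Chip and coating can therefore not be fully told apart from strain.

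Yeast takes up ammonium through the Mep permeases and amino acids through permeases such as Gap1. Glutamate dehydrogenase Gdh1 fixes ammonium into glutamate, and glutamine synthetase Gln1 adds a further ammonium to make glutamine; these amino acids donate nitrogen to nearly all others. Amino acids can also be broken down as nitrogen sources: arginase and ornithine transaminase (Car1, Car2) open the path from arginine, Dur1,2 degrades the urea that arginase releases, and Put1 starts the oxidation of proline in mitochondria. While a rich nitrogen source is present, many of these genes are kept low by nitrogen catabolite repression, in which the GATA factor Gln3 is held in the cytoplasm with the help of Ure2 and under control of the TOR kinases. Gln3 that enters the nucleus activates genes for poorer nitrogen sources, GAP1, GLN1 and MEP2 among them. CAR1 and CAR2 also answer to arginine, and PUT1 to proline, through regulators of their own.

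On each array the RNA of a later time was hybridised against that of time 0 (t0) from its own flask, collected at 30 °C. The deposited score is a log ratio that was brought to a common width on every array. It is not a fold, and the sources used here do not give its log base. A positive score is taken to mean more transcript at the later time, a direction read from the sample titles. Since every strain is set against its own t0, a difference between strains is a difference in the change after t0 and says nothing of the level before the shift. For the same reason the ratio of GLN3 itself does not check the deletion: it averaged 0.08 ± 0.53 in dGLN3 and 0.55 ± 0.40 in wild type at t60 (SD, n = 4 flasks each). In the ranking of all frames 4 arrays resembled the other phase of the experiment, among them dGLN3 t60 flask 2 (rank correlation −0.318 with the cold profile of the other strains and 0.294 with their recovery profile). Another, dHAP4 t90 flask 4, correlated at −0.168 with its own phase and at 0.617 with the other. The rest were dHMO1 flask 3 at t60 (−0.056 and 0.119) and at t90 (−0.229 and 0.488). For dHMO1 the direction of the ratio is not settled, because its t15 arrays of flasks 3 and 4, of one dye orientation, correlated at −0.476. Its flask 2 arrays at t15, t30 and t60 correlated at 0.425, 0.539 and 0.574 with the cold profile of the other strains, and its flask 4 arrays at 0.132, 0.332 and 0.338. Its flask 3 arrays correlated at 0.407, 0.644 and −0.056 at these times. The dHMO1 ratios are kept as deposited. Tests with the sign of flask 2 or flask 4 turned were also run, and none with that of flask 3. The order of the strains and the counts of single flasks are given as deposited too, with the turned values beside those they change. For dGLN3 flask 3 the labels put the later sample in Cy5 at t15 and t90 but in Cy3 at t60. Its arrays correlated at 0.455, 0.220 and 0.663 with their own phase at t15, t90 and t60. Its ratios are kept as deposited, and no test with their sign turned was run. The 10 members had values on 126 (CAR2) to 137 (GAP1) of the 137 arrays, and CAR2 had none in dHAP4 at t90, so that no test that needs this group could include it. Flasks were separate cultures, but per the labels they were run as pairs on 1 day, and which flasks formed a pair is not stated.

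The mean scores of the 10 genes fell into a few kinds of course. GAP1 was above 0 in most strains at all times. GLN1, GDH1, CAR1, CAR2 and PUT1 were mostly low late in the cold and high late in recovery. The ammonium permease genes and DUR1,2 had strain and time means that spread less than the flasks of a group did: the spread of the 34 strain and time means (SD) was 0.428 for MEP1, 0.367 for MEP2, 0.606 for MEP3 and 0.506 for DUR1,2, and the median SD over the flasks of a group was larger, at 0.594, 0.836, 0.732 and 0.771. Among these genes, means beyond 1 either way included DUR1,2 in wild type at t120 (1.6), MEP3 in dHAP4 at t90 (−1.35) and in dGLN3 at t120 (1.05), and MEP1 in dZAP1 at t120 (−1.02). For GLN1, GDH1 and CAR1 the means spread more than the flasks did, with 1.5, 1.51 and 1.36 over the means and 1.45, 1.31 and 1.03 over the flasks. So they did for PUT1 (0.91 and 0.734) and for CAR2 without its missing group (1.29 and 0.874). GAP1, with 0.701 over the means and 0.769 over the flasks, had the smaller spread over the means.

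**Figure D1:**
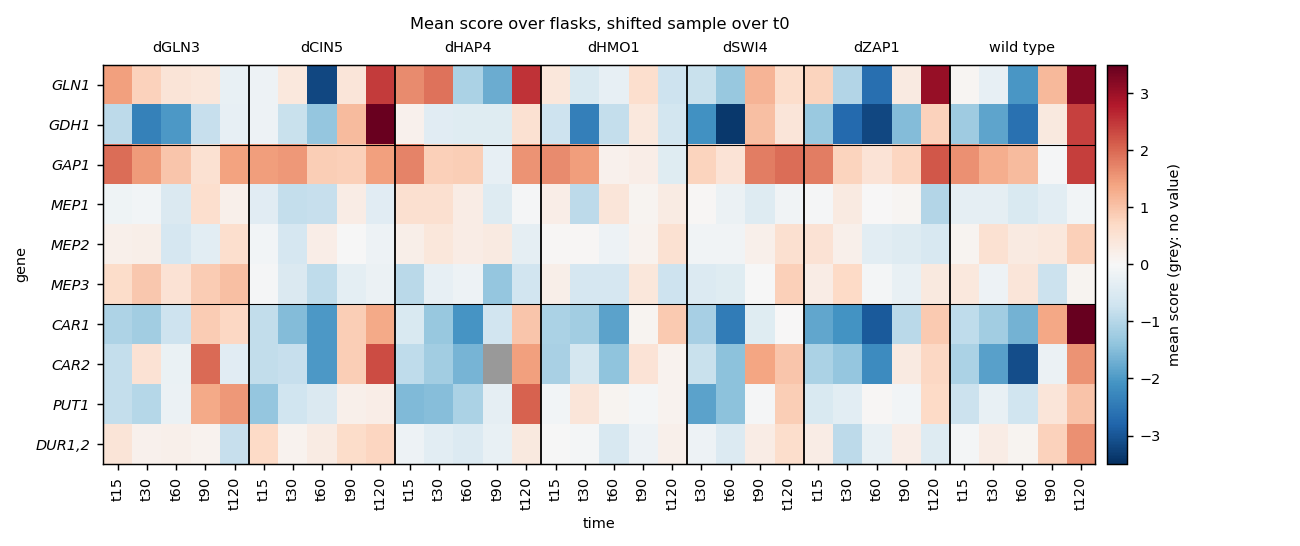
Mean score (later time over t0, colour scale) of the 10 genes in rows, by strain and time in columns, with dGLN3 at the left and wild type at the right. GLN1 at t60 is above 0 in dGLN3 (0.46) and below 0 in the other 6 strains (dHMO1 at 0.55 with the sign of its flask 4 turned; dGLN3 at −0.25 without the arrays resembling the other phase), and CAR1 at t120 reaches 3.5 in wild type; the grey cell is CAR2 in dHAP4 at t90, which has no value.

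The average over the strains shows the course common to the cultures. It was tested against 0 in limma, in 1 fit of all arrays with flask as a random block and Benjamini-Hochberg adjustment over all frames, at an adjusted p below 0.05 (called passing below). This comparison was added after the data had been seen, and t15 has 6 strains. Both assimilation genes moved down and then up. GLN1, glutamine synthetase, had a strain average of −1.46 ± 0.31 at t60 (SE, adjusted p = 3.27e-05 in limma) and of 1.54 ± 0.31 at t120 (adjusted p = 6.77e-05). Its averages at t15, t30 and t90 were 0.71, 0.04 and 0.35 and did not pass, although that of t15 passed when the sign of dHMO1 flask 4 was turned (0.98, adjusted p = 0.0118). At t60 the mean was below 0 in 6 of 7 strains, dGLN3 being the exception. With the sign of dHMO1 flask 4 turned dHMO1 was at 0.55 and 5 of 7 means were below 0, and without the arrays resembling the other phase dGLN3 was at −0.25 and dHMO1 at 0.14. GDH1, the glutamate dehydrogenase that fixes ammonium, was already low at t30 (−1.81 ± 0.34, adjusted p = 2.61e-06) and stayed low at t60 (−1.96 ± 0.33, adjusted p = 3.66e-07), with all 7 strain means below 0 at both times. At t120 GDH1 averaged 0.92 ± 0.34 (adjusted p = 0.0403); 5 of 7 strain means were above 0 (6 with the sign of dHMO1 flask 4 turned), and the test was no longer passed without wild-type flask 1 or 2, without dGLN3 flask 2, 4 or 5, or on the Ontario chips alone (averages of 0.82 to 0.93).

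Among the transport genes GAP1, the general amino acid permease, was the one that moved. It was highest at the first sample, with a strain average of 1.74 ± 0.20 at t15 (SE, adjusted p = 7.72e-13 in limma) and all 6 strain means above 0. The average was 1.16 ± 0.18 at t30, 0.71 ± 0.18 at t60 and 0.53 ± 0.18 at t90, all of which passed (adjusted p = 2.59e-08, 0.000575 and 0.0236), and 1.5 ± 0.18 at t120 (adjusted p = 9.34e-11). Of the single flasks of strains other than dGLN3, 19 of 20 were above 0 at t15, 24 of 25 at t30 and 20 of 24 at t60. With the sign of dHMO1 flask 2 turned these were 18, 23 and 19, and with that of flask 4 turned 18, 23 and 21. The 3 ammonium permease genes did not pass at any time: the averages of MEP1, MEP2 and MEP3 lay between −0.20 and 0.19, and their 95% intervals between −0.55 and 0.54.

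The breakdown genes were low in the cold, apart from DUR1,2. CAR1, arginase, had a strain average of −1.03 ± 0.23 at t15, −1.42 ± 0.21 at t30 and −1.95 ± 0.21 at t60 (SE, adjusted p = 9.52e-05, 8.52e-09 and 1.41e-13 in limma), and all 7 strain means were below 0 at t30 and at t60, except that dHMO1 was at 0.16 at t30 with the sign of its flask 4 turned. CAR2, ornithine transaminase, averaged −1.03 ± 0.24, −0.95 ± 0.22 and −1.72 ± 0.23 at these times and passed at each. PUT1, proline oxidase, averaged −0.81 ± 0.18, −0.76 ± 0.16 and −0.56 ± 0.16 and also passed at each. At t120 all 3 were above t0, with 1.24 ± 0.22 for CAR1, 0.91 ± 0.23 for CAR2 and 0.94 ± 0.16 for PUT1 (adjusted p = 4.6e-06, 0.00146 and 2.05e-06), and all 7 strain means of CAR1 and of PUT1 were above 0. With turned signs dHMO1 was the exception, at −0.19 for CAR1 (flask 2) and at −0.19 for PUT1 (flask 4). At t90 CAR1 and PUT1 averaged 0.20 each and did not pass; CAR1 passed when the 4 arrays resembling the other phase were left out (0.51, adjusted p = 0.0392). DUR1,2, urea amidolyase, did not pass at any time (averages −0.20 to 0.33), except at t120 when wild-type flask 3 was left out (0.41, adjusted p = 0.0477).

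**Figure D2:**
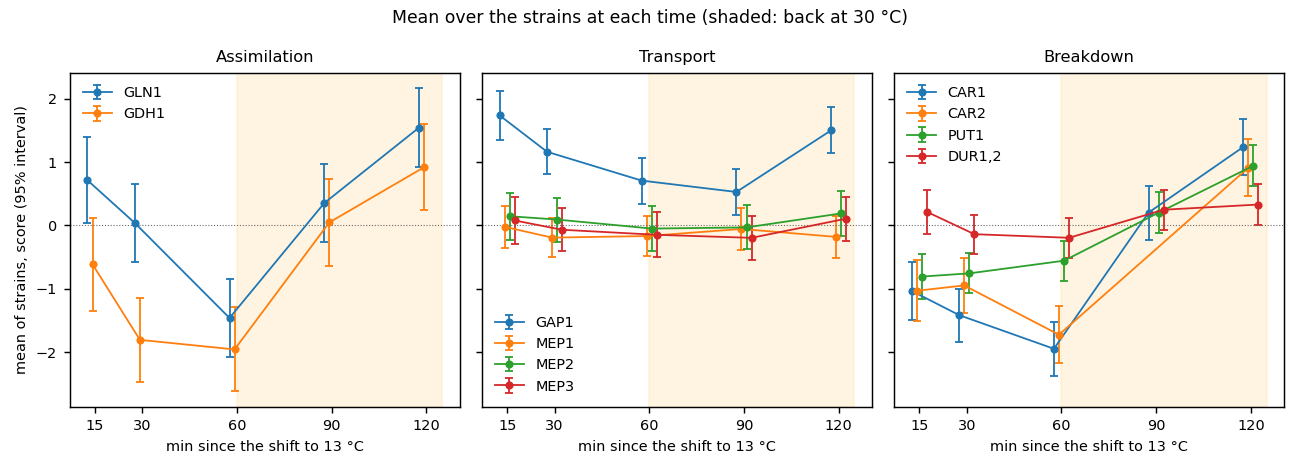
Average score over the strains at each time with its 95% interval, for assimilation, transport and breakdown genes; the shaded area is the return to 30 °C, and CAR2 has no value at t90. GAP1 is above 0 at all 5 times, CAR1, CAR2 and PUT1 are below 0 at the 3 cold times and above it at t120, and the MEP genes stay within −0.20 and 0.19.

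These counts are to be read beside those of all frames, many of which also passed. At t15, 4 of 10 members passed, against 46.9% of all frames; at t30, 5 of 10, against 54.9%; and at t60, 6 of 10, against 54.4%. In the cold the members thus passed about as often as frames in general. At t90, 1 of 9 tested members passed, against 25% of all frames. At t120, 6 of 10 passed, all of them higher than at t0, against 23.2% of all frames, and the median over the members was 0.91, beside 0.00059 over all frames. Between the phases, the mean of t90 and t120 minus the mean of t30 and t60, 5 of 9 members passed, all higher in recovery: CAR1 by 2.40 ± 0.18 (SE), GDH1 by 2.36 ± 0.29, GLN1 by 1.66 ± 0.26, PUT1 by 1.23 ± 0.14 and DUR1,2 by 0.46 ± 0.13 (adjusted p in limma at most 0.00186). Of all frames 69.7% passed in that comparison. GAP1 (0.08 ± 0.15) and the MEP genes (0.06 ± 0.14 for MEP1, 0.06 ± 0.15 for MEP2 and for MEP3) did not differ between the phases by more than their error.

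Wild type alone was tested in a fit of its own arrays. GAP1 scored 0.19, 2.23, 1.97 and 2.04 in flasks 1 to 4 at t15, with flask 1 far below the other three; the fitted mean was 1.67 ± 0.47 (SE, adjusted p = 0.0216), and it was not passed without flask 2, 3 or 4 (1.52 to 1.55). It was the 1 member of 10 to pass at t15, against 10.8% of frames. CAR1 passed there without flask 1 (−1.53, adjusted p = 0.0448), and on the Ontario chips alone both CAR1 (−1.61) and GDH1 (−1.82) did. At t30, 3 of 10 passed, against 15.1%: CAR2 (−1.90 ± 0.44, adjusted p = 0.00372) and GDH1 (−1.85 ± 0.51, adjusted p = 0.0141) were lower, and GAP1 (1.27 ± 0.43, adjusted p = 0.0445) higher. CAR2 was at −1.35 or lower in all 5 flasks. CAR1 was just outside the threshold (−1.21 ± 0.42, adjusted p = 0.0503) and passed in 7 of 14 alternatives (−1.83 to −0.92, adjusted p from 0.0189 to 0.245). GDH1 was lost there without flask 2 or 3 (−1.63 and −1.84) and in 1 fit of all strains (−1.85, adjusted p = 0.105), and GAP1 without flask 1, 2 or 4 (0.99 to 1.27), on the Ontario chips alone (1.54) and with no replicate block (1.27, adjusted p = 0.0506).

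At t60 in wild type 4 of 10 members passed, all lower than at t0, against 15.7% of frames. CAR2 scored −2.41, −4.02, −4.26 and −1.72 in flasks 0 to 3, a fitted mean of −3.08 ± 0.48 (SE, adjusted p = 0.000105). GLN1 scored −1.19, −2.46, −1.91 and −2.65 (−1.95 ± 0.51, adjusted p = 0.00877). GDH1 averaged −2.61 ± 0.56 (adjusted p = 0.00202) and CAR1 −1.56 ± 0.46 (adjusted p = 0.0207). Every flask of these 4 genes was below 0. GLN1 and CAR1 were not passed without flask 2 (−1.94 and −1.32) or flask 3 (−1.74 and −1.23), and GLN1 not in 1 fit of all strains (−1.94, adjusted p = 0.0874). At t90 no member passed in limma, and 5.6% of frames did. An unadjusted p below 0.05 was found for 3 members and for 1193 of 6177 frames. GLN1 passed on the Ontario chips alone (1.95, adjusted p = 0.0281). At t120, 4 of 10 passed, all higher, against 2.69% of frames. CAR1 scored 3.75, 3.28, 3.3, 2.02 and 5.16 in flasks 0 to 4 (3.5 ± 0.42, adjusted p = 5.8e-06). GLN1 scored 2.29, 1.96, 4.42, 2.27 and 5.16 (3.22 ± 0.46, adjusted p = 8.13e-05). GAP1 averaged 2.43 ± 0.43 (adjusted p = 0.00121) and GDH1 2.40 ± 0.51 (adjusted p = 0.00758), each above 0 in 5 of 5 flasks; GDH1 was lost without flask 1 (2.22) and in 1 fit of all strains (2.40, adjusted p = 0.0838), and on the Ontario chips alone GAP1 (2.10) and GDH1 (1.99) were both lost. DUR1,2 scored 3.84, 3.55, 1.63, −0.76 and −0.27 and did not pass (1.6 ± 0.47, adjusted p = 0.0602). It passed in 4 of 14 alternatives, 1 fit of all strains among them (adjusted p = 0.00433), over which it ran from 0.20 to 2.19 and the adjusted p from 0.00433 to 0.908. CAR2 was just outside the threshold (1.56 ± 0.44, adjusted p = 0.0501) and passed in 7 of 14 alternatives (1.30 to 1.90, adjusted p from 0.028 to 0.316).

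In the fit of the dGLN3 arrays alone, GAP1 was the one member to pass against t0. It scored 1.30, 2.84, 1.56 and 2.12 in flasks 2 to 5 at t15 (fitted mean 2.02 ± 0.36, SE, adjusted p = 0.00336), where 1 of 10 members and 6.08% of frames passed. At t30 it scored 2.41, 1.20, 1.59 and 0.74 in flasks 1, 2, 4 and 5 (1.5 ± 0.36, adjusted p = 0.0103), where again 1 of 10 members and 11.4% of frames passed. All flasks of dGLN3 had GAP1 above 0, at t15 and t30 as at the 3 later times. GAP1 was lost at t15 without flask 5 (1.97) and at t30 without flask 4 (1.45). No member passed in limma at t60, t90 or t120, where 0.494%, 1.45% and 0.626% of frames passed. An unadjusted p below 0.05 was found for 2, 3 and 3 members at these times. Of all frames 1043 of 6073, 887 of 6060 and 876 of 6072 had such a p. The t60 fit holds flask 2, one of the arrays resembling the other phase, among its 4 flasks. Without the arrays of that kind GAP1 had the lowest adjusted p of the members at t60 (1.13 ± 0.41, SE, adjusted p = 0.0899 in limma). The share of all frames passing in that fit is not given here. At t120 GAP1 in dGLN3 was at 1.46, 1.00, 1.08 and 2.06 in flasks 1, 2, 4 and 5 (1.41 ± 0.36, adjusted p = 0.0663), which passed without flask 1 (1.41, adjusted p = 0.0418). In 1 fit of all strains CAR2 at t90 (2.09, adjusted p = 0.0136) and PUT1 at t120 (1.5, adjusted p = 0.0234) passed as well.

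**Figure D3:**
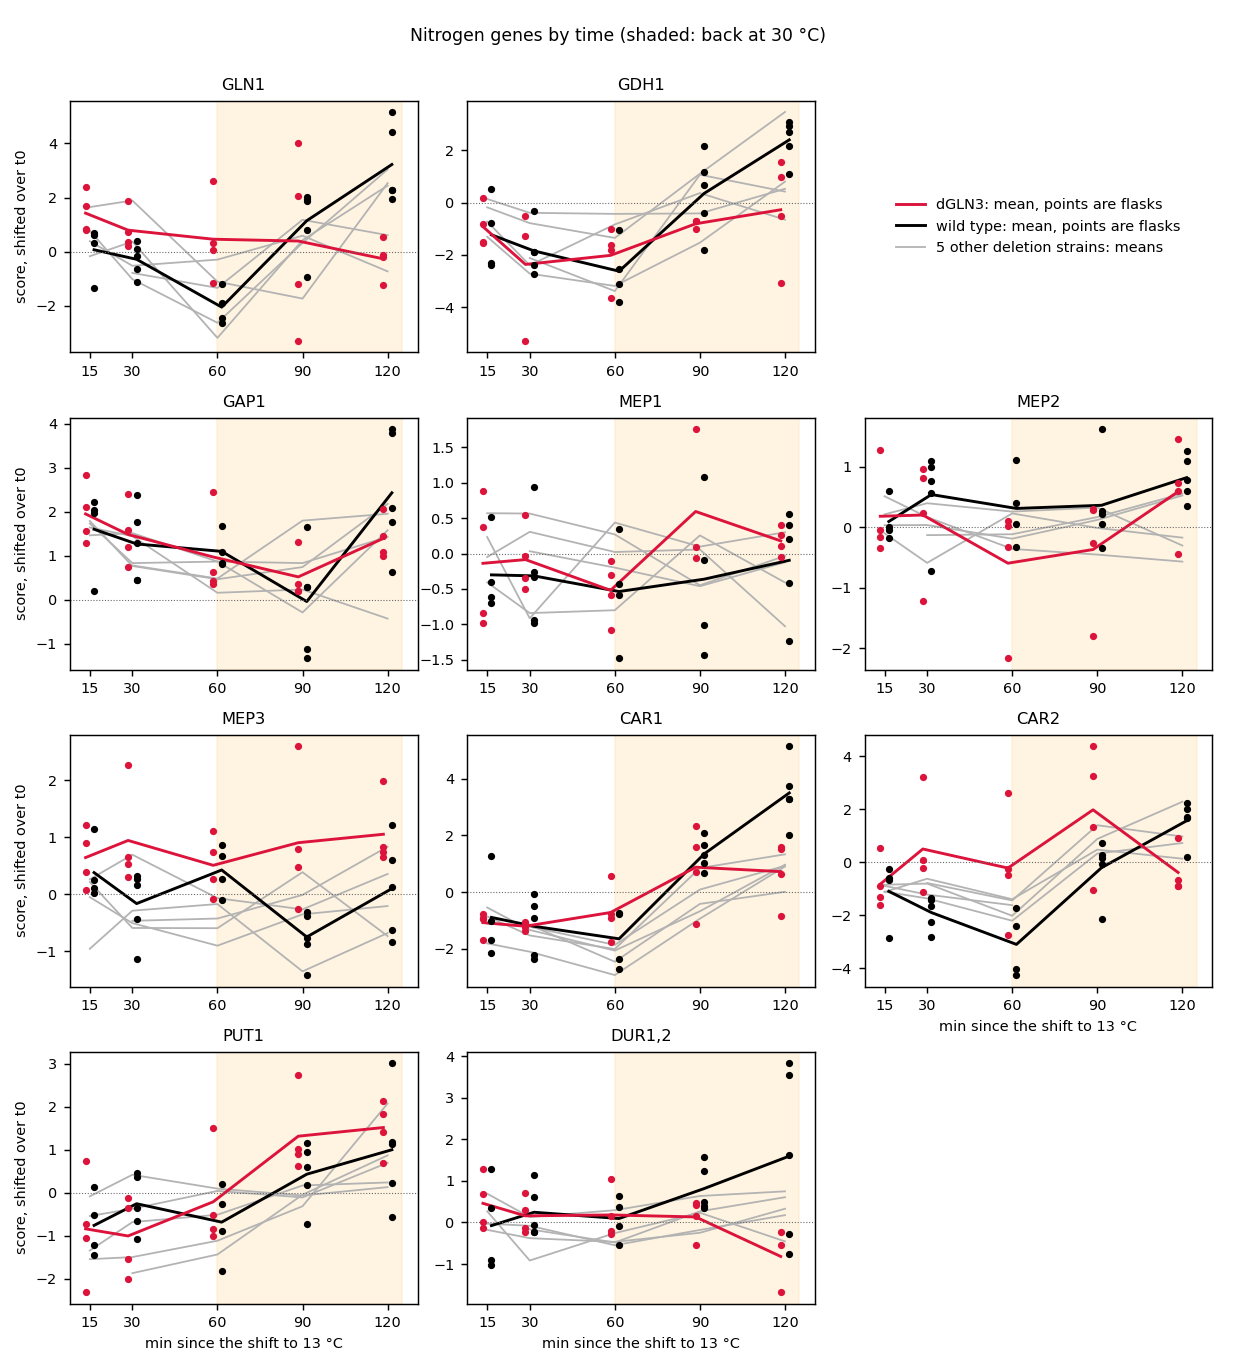
Score (later time over t0) of each gene against minutes since the shift to 13 °C, with flasks as points and means as lines for dGLN3 (red) and wild type (black) and means of the 5 other deletion strains in grey; the shaded area is the return to 30 °C. In wild type GLN1 is at −2.05 at t60 and at 3.22 at t120, while the dGLN3 line runs between 1.42 and −0.27, and MEP3 is highest in dGLN3 at all 5 times as deposited (dHMO1 is higher at t15 and t90 with the sign of its flask 4 turned, and wild type at t60 without the arrays resembling the other phase).

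Whether the loss of Gln3 altered these courses was asked by setting dGLN3 against the mean of the 6 other strains, each with equal weight, in the cold (mean of t30 and t60) and in recovery (mean of t90 and t120). Wild type, grown without G418, is 1 of those 6, so the difference in G418 enters this comparison too. No member passed in the cold in limma: 0 of 10, against 0.309% of frames. An unadjusted p below 0.05 was found for 2 members and for 474 of 5819 frames. In recovery 0 of 9 passed, against 0.809% of frames, and 2 members and 575 of 5685 frames had an unadjusted p below 0.05. The change of that difference between the phases was also passed by 0 of 9, against 2.07% of frames. There 3 members and 892 of 5611 frames had an unadjusted p below 0.05. CAR2 could not be tested in recovery or in the change with these phase means and is given below for t60 and t120 alone. The members' median difference was 0.37 in the cold, beside 0.03 over all frames, and 0.0043 in recovery, beside −0.04. The 95% intervals given with each gene show how large a difference remains possible.

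GLN1 had the largest change of its difference between the phases among the 9 genes tested in it. At t60 dGLN3 scored 0.33, 2.60, −1.16 and 0.07 in flasks 1 to 4, and the 24 flasks of the other strains ran from −5.07 through a median of −1.70 to 1.12, 2 of them above 0 (with the sign of dHMO1 flask 4 turned, to 1.70 and 3 of them; with that of flask 2 turned, 1 of them). At t120 dGLN3 scored 0.53, −0.14, −0.21 and −1.25 in flasks 1, 2, 4 and 5, and the other 24 flasks ran from −2.75 through 2.28 to 5.42, 18 of them above the highest dGLN3 flask (17 or 19 with the sign of dHMO1 flask 2 or flask 4 turned). The dGLN3 flasks thus lay high among the others at the end of the cold and low among them at the end of recovery, overlapping them both times. As a mean, dGLN3 was the highest of 7 strains at t60 (0.46 ± 1.57, SD, against −0.29 in dHMO1 to −3.19 in dCIN5) and the sixth of 7 at t120 (−0.27 ± 0.73, against −0.73 in dHMO1 to 3.22 in wild type). With the sign of dHMO1 flask 4 turned, dHMO1 averaged 0.55 at t60 and 0.65 at t120, so that dGLN3 was second and lowest of 7. Without flask 2, one of the arrays resembling the other phase, the fitted dGLN3 level at t60 was −0.27, in place of 0.36. Without all 4 such arrays its mean of −0.25 was second to the 0.14 of dHMO1. At t90 the 4 dGLN3 flasks were too far apart to place, at 2.04, 4.01, −1.18 and −3.3.

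The difference in GLN1 was 1.35 ± 0.69 in the cold (SE, 95% interval −0.02 to 2.73, adjusted p = 0.61 in limma) and −1.12 ± 0.70 in recovery (−2.50 to 0.26, adjusted p = 0.634). Its change between the phases was −2.47 ± 0.75 (−3.96 to −0.98, adjusted p = 0.058), just short of the threshold. With t60 and t120 alone in place of the phase means that change was −4.34 (adjusted p = 0.0135). Without the 4 arrays resembling the other phase, dGLN3 t60 flask 2 with its GLN1 score of 2.60 among them, it was −3.70 (adjusted p = 0.0726) for t60 and t120 alone and −2.28 (adjusted p = 0.0766) for the phase means. It also passed without dGLN3 flask 1 (−2.89, adjusted p = 0.0321), without dGLN3 flask 2 (−2.81, adjusted p = 0.0442), without wild-type flask 0 (−2.57, adjusted p = 0.0467), without dHMO1 (−2.81, adjusted p = 0.0216), on the Ontario chips alone and on the PEG-coated slides alone. Of its 25 alternatives these 7 passed and the others did not. Over all 25 the value ran from −4.34 to −1.86 and the adjusted p from 0.0135 to 0.275.

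The other assimilation gene, GDH1, had its dGLN3 flasks inside the range of the others at the end of both phases. At t60 it scored −1.02, −1.60, −3.64 and −1.81 in dGLN3, where the other flasks ranged widely (−7.13 to 1.77, median −1.61). At t120 it scored −3.09, 0.96, −0.50 and 1.53, beside the others' range (−4.13 to 8.34, median 0.97). The difference was −0.31 ± 0.78 in the cold (SE, 95% interval −1.85 to 1.24) and −1.11 ± 0.78 in recovery (−2.66 to 0.44), so that a difference of more than 1 unit either way is not shut out in the cold.

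MEP3, one of the 3 ammonium permeases, was the gene whose mean was highest in dGLN3 at 5 of 5 times as deposited. With the sign of dHMO1 flask 4 turned dHMO1 was higher at t15 (0.92) and at t90 (1.19), and without the arrays resembling the other phase wild type was higher at t60 (0.31 in dGLN3, 0.42 in wild type). At t30 dGLN3 scored 0.66, 0.30, 0.54 and 2.27 in flasks 1, 2, 4 and 5, and 20 of the 25 other flasks lay below the lowest of them (range −2.30 to 1.63, median −0.10). These were 21 flasks, with a highest of 1.17, when the sign of dHMO1 flask 2 was turned, and 19, with a highest of 1.89, for flask 4. At t120 it scored 0.65, 1.99, 0.73 and 0.83, and 16 of the 24 other flasks lay below the lowest (−3.05 to 2.40, median 0.01; 17 or 15 flasks with the sign of dHMO1 flask 2 or flask 4 turned). The ranges overlapped at every time. Its difference was 1.00 ± 0.39 in the cold (SE, 95% interval 0.22 to 1.77, adjusted p = 0.397) and 1.10 ± 0.39 in recovery (0.33 to 1.88, adjusted p = 0.236), which did not pass, and it changed by 0.10 ± 0.42 between the phases. MEP1, at −0.13 ± 0.35 and 0.52 ± 0.37, and MEP2, the permease that also acts as an ammonium sensor, at −0.15 ± 0.39 and 0.0043 ± 0.39, had intervals on both sides of 0.

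GAP1, a well-known Gln3 target, did not pass between dGLN3 and the rest: it differed by 0.35 ± 0.41 in the cold (SE, 95% interval −0.46 to 1.15, adjusted p = 0.897 in limma) and by −0.08 ± 0.41 in recovery (−0.89 to 0.73, adjusted p = 0.976). At t15 its dGLN3 mean of 1.95 ± 0.68 (SD) was the highest of 6 strains, beside 1.47 in dCIN5 to 1.79 in dZAP1 (dHMO1 at 0.67 or 1.42 with the sign of flask 2 or flask 4 turned), a gap smaller than the SD over flasks.

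CAR2 had the smallest adjusted p of the members in the cold. Of the strains, wild type, grown without G418, had the lowest CAR2 mean at t30 (−1.9) and at t60 (−3.10). At t30 dGLN3 scored −1.12, 3.22, 0.09 and −0.21 in flasks 1, 2, 4 and 5, and none of the 24 other flasks was above 0 as deposited (−2.81 to −0.10, median −1.12). With the sign of dHMO1 flask 2 or flask 4 turned that flask was above 0 and the highest of the 24, at 0.43 or 1.10. At t60 it scored −0.48, 2.61, −2.76 and −0.26 in flasks 1 to 4, and the 22 other flasks ran from −4.26 through −1.79 to −0.92 (to 0.99 with the sign of dHMO1 flask 2 turned). Flask 2 was far above the rest of dGLN3 both times, flask 3 at t60 lay among the other strains, and the ranges overlapped both times. The dye label of flask 3 at t60 differs from that at its other times. The difference was 1.56 ± 0.48 (SE, 95% interval 0.60 to 2.51, adjusted p = 0.185). It passed without dGLN3 flask 3 (2.07, adjusted p = 0.046), with no replicate block (1.68, adjusted p = 0.0341) and with flask number as a fixed replicate block (1.66, adjusted p = 0.0401), and was 1.22 (adjusted p = 0.412) without the 4 arrays resembling the other phase; over 25 alternatives it ran from 0.66 to 2.07. The lowest was the fit without dGLN3 flask 2 (0.66 ± 0.49, adjusted p = 0.899). At t90 dGLN3 scored 1.33, 4.38, −1.07 and 3.25 in flasks 1, 2, 3 and 5, the highest of 6 strain means (1.97), and none of the 20 other flasks was above its highest. At t120 dGLN3 scored −0.69, −0.89, 0.91 and −0.89 in flasks 1, 2, 4 and 5, and 14 of 22 other flasks lay above its highest (13 with the sign of dHMO1 flask 2 turned). That was the lowest of 7 strain means, or the sixth when dHMO1 stood at −1.04 with the sign of its flask 2 turned. The recovery difference, which for CAR2 could be fitted only without t90 or without dHAP4, was −1.83 ± 0.61 at t120 alone (SE, adjusted p = 0.148) and −0.05 ± 0.51 as the mean of t90 and t120 on the PEG-coated slides, a fit that holds neither dHAP4 nor dSWI4 (adjusted p = 0.991). The change of the CAR2 difference between t60 and t120 alone was −3.57 ± 0.75 and passed (adjusted p = 0.00224). It passed also without the arrays resembling the other phase (−2.84 ± 0.79, adjusted p = 0.0381), and on the PEG-coated slides, with phase means, it was −1.73 ± 0.55 and did not (adjusted p = 0.095).

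CAR1, the gene of the step before CAR2, had its highest strain mean at t60 in dGLN3 (−0.72 ± 0.96, SD, against −1.65 in wild type to −2.93 in dZAP1), or the second highest after dHMO1 (−0.22) with the sign of dHMO1 flask 4 turned. The dGLN3 flasks scored −0.76, 0.56, −1.77 and −0.90, and the single score above 0 was that of flask 2. At t120 dGLN3 was the sixth of 7 (the fifth with the sign of dHMO1 flask 2 turned), with 0.62, 1.53, 1.59 and −0.85 in flasks 1, 2, 4 and 5. The difference was 0.74 ± 0.48 in the cold (SE, 95% interval −0.20 to 1.69) and 0.04 ± 0.48 in recovery (−0.91 to 0.99). For PUT1 it was −0.01 ± 0.36 in the cold and 0.94 ± 0.36 in recovery (0.23 to 1.65, adjusted p = 0.291): at t90 the 4 dGLN3 flasks, at 2.73, 1.01, 0.90 and 0.62, all lay above 0, and 19 of 24 other flasks lay below the lowest of them (18 with the sign of dHMO1 flask 2 turned). Its change between the phases was 0.96 ± 0.39 (adjusted p = 0.184), which passed on the PEG-coated slides alone (1.5, adjusted p = 0.033). For DUR1,2 the difference was 0.39 ± 0.35 in the cold and −0.70 ± 0.37 in recovery (−1.43 to 0.03), a change of −1.10 ± 0.40 (adjusted p = 0.128). At t120 its 3 measured dGLN3 flasks, at −1.67, −0.54 and −0.24, had the lowest mean of the 7 strains.

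**Figure D4:**
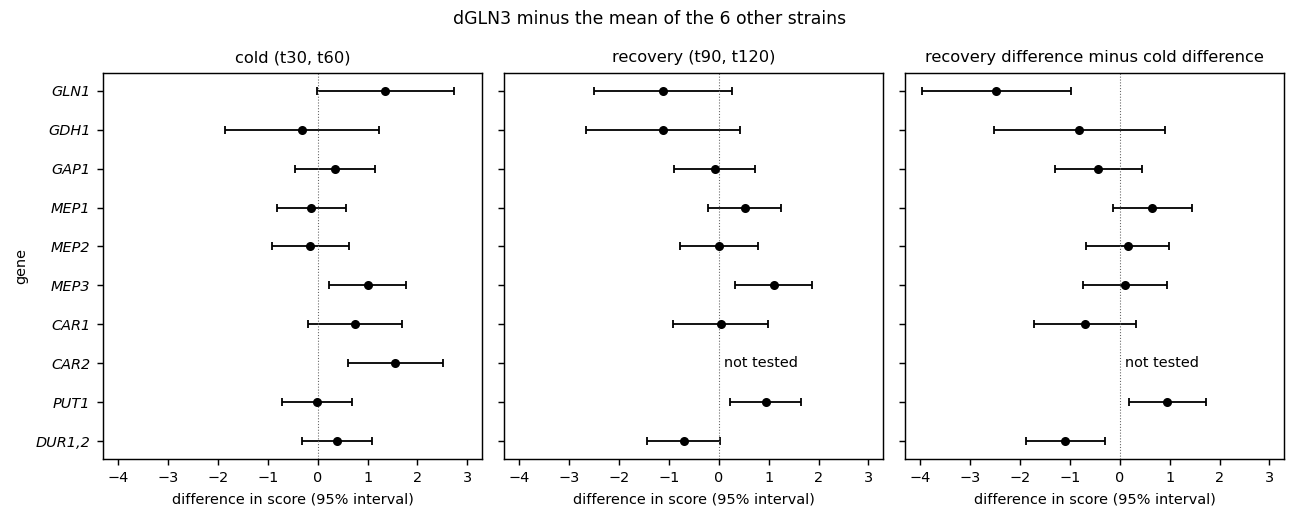
Difference in score between dGLN3 and the mean of the 6 other strains, with its 95% interval, for each gene in the cold, in recovery, and as the change between them. Intervals leave out 0 for MEP3 and CAR2 in the cold, for MEP3 and PUT1 in recovery and for GLN1, PUT1 and DUR1,2 in the change, none of which passed after adjustment over all frames.

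Set against wild type alone, in a fit of those strains, 0 of 10 members passed in the cold in limma and 0 of 10 in recovery. Of all frames 0.348% and 0.848% passed. An unadjusted p below 0.05 was found for 2 members and 632 of 6040 frames in the cold. In recovery it was found for 5 members and 685 of 6017 frames. CAR2 in the cold differed by 2.52 ± 0.68 (SE, 95% interval 1.15 to 3.89, adjusted p = 0.0942), and passed without dGLN3 flask 3 (3.02, adjusted p = 0.0174), with no replicate block (2.64, adjusted p = 0.042) and in 1 fit of all strains (2.49, adjusted p = 0.0287). Without the arrays resembling the other phase it was 2.15 (adjusted p = 0.158); over 22 alternatives it ran from 1.61 (without dGLN3 flask 2) to 3.02, with an adjusted p of up to 0.719, and passed in those 3. In recovery CAR2 differed by 0.06 ± 0.67 (adjusted p = 0.984; −2.15 at t120 alone, adjusted p = 0.358). GLN1 differed by −2.18 ± 0.67 (adjusted p = 0.124), CAR1 by −1.66 ± 0.49 (adjusted p = 0.105), MEP3 by 1.24 ± 0.37 (adjusted p = 0.105), DUR1,2 by −1.53 ± 0.49 (adjusted p = 0.155) and GDH1 by −1.86 ± 0.69 (adjusted p = 0.25). GLN1 passed without dGLN3 flask 2 (−2.76, adjusted p = 0.0209), and MEP3 with no replicate block (1.30, adjusted p = 0.0419). At t120 GLN1 was at most 0.53 in the flasks of dGLN3 and at least 1.96 in those of wild type. CAR1 was at most 1.59 in dGLN3 and at least 2.02 in wild type. How many of all frames were separated in this way was not counted, so the separation cannot be called particular to these genes. With t120 alone in place of the phase mean CAR1 differed by −2.88 and passed (adjusted p = 0.0426, and 0.0343 without the 4 arrays resembling the other phase), and GLN1 differed by −3.62 (adjusted p = 0.0675).

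**Figure D5:**
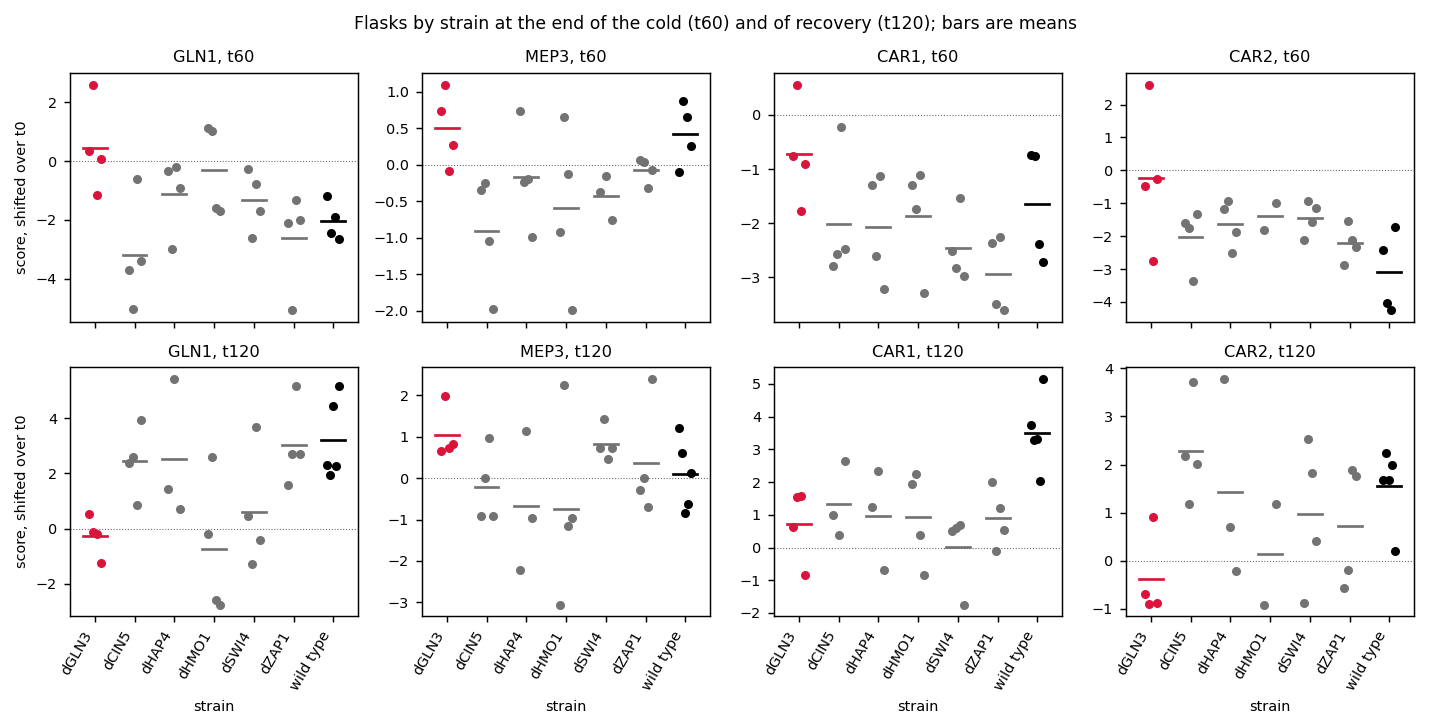
Scores of single flasks (points) and their means (bars) by strain, dGLN3 at the left and wild type at the right, for GLN1, MEP3, CAR1 and CAR2 at the end of the cold (t60, upper row) and of recovery (t120, lower row). GLN1 at t120 is between −1.25 and 0.53 in dGLN3 and between 1.96 and 5.16 in wild type, and CAR1 at t120 is higher in wild type (2.02 to 5.16) than in most flasks of the deletion strains. The number of all frames separated between strains in such a way was not counted.

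The same comparison was made for each other strain. Against the mean of its 6 counterparts no member passed in limma for dCIN5 (in the cold 1 with an unadjusted p below 0.05 and 0.0172% of frames passing, in recovery 1 and 0.0704%), dHAP4 (2 and 0.0516%, and 1 and 0%), dHMO1 (1 and 0.0516%, and 1 and 1.13%), dSWI4 (1 and 0.103%, and 2 and 0.651%) or dZAP1 (0 and 0.0172%, and 0 and 0.193%). Of 5819 frames in the cold 359 (dCIN5), 196 (dHAP4), 501 (dHMO1), 354 (dSWI4) and 203 (dZAP1) had an unadjusted p below 0.05. In recovery these were 486, 215, 679, 500 and 386 of 5685. For dHMO1, whose direction is not settled, 2 members passed in each phase with the sign of flask 2 turned. Unturned, the flask 2 arrays correlated above 0 with the profile of their own phase at every time (0.177 at t90, 0.107 at t120). The turned values go against that, and the share of all frames passing with them is not given here. The members that passed were PUT1 (1.23, adjusted p = 0.0113) and MEP3 (−1.14, adjusted p = 0.0228) in the cold, and GAP1 (−1.53, adjusted p = 0.00994) and GLN1 (−2.39, adjusted p = 0.0121) in recovery. As deposited, GAP1 in recovery (−1.29, adjusted p = 0.111) passed with no replicate block and with flask number as a fixed replicate block (−1.31 and −1.32, adjusted p = 0.0198 each). Wild type had none in the cold, against 0.619% of frames. There 1 member and 471 of 5819 frames had an unadjusted p below 0.05. In recovery 1 of 9 passed, against 0.58% of frames. This was CAR1, higher in wild type by 1.99 ± 0.45 (SE, 95% interval 1.09 to 2.89, adjusted p = 0.00945). At t120 wild type averaged 3.5 ± 1.13 (SD, n = 5), and the deletion strains averaged 0.01 (dSWI4) to 1.33 (dCIN5) as deposited; dHMO1 was the lowest, at −0.19, with the sign of its flask 2 turned and the highest of them, at 1.35, with that of flask 4 turned. The CAR1 difference was no longer passed without wild-type flask 4 (1.69, adjusted p = 0.108) or on the Ontario chips alone, which leave out wild-type flasks 0 and 1 (2.04, adjusted p = 0.0714). DUR1,2, which differed by 1.07 ± 0.33 (adjusted p = 0.126), passed in 2 of 20 alternatives, among them that without wild-type flask 3 (1.41, adjusted p = 0.033). At t120 dGLN3 had the highest mean of 7 strains for 1 of the 10 members (MEP3, and MEP1 also with the sign of dHMO1 flask 2 turned), and wild type for 5 (GLN1, GAP1, MEP2, CAR1 and DUR1,2). For how many of all frames each strain was highest was not counted, so these numbers cannot be called particular to the members. With wild type the one strain grown without G418, strain and medium cannot be told apart here.

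Other genes of nitrogen use were counted from 3 lists: 22 further enzymes, 29 transporters and 27 regulators, all on the array. In dGLN3 minus the 6 others none of the 20 enzymes, 28 transporters and 26 regulators tested in the cold passed, nor any of the 20, 29 and 24 tested in recovery (limma, with 2, 5 and 1 at an unadjusted p below 0.05 in the cold and 4, 3 and 1 in recovery), where 0.309% and 0.809% of all frames passed. Of all frames 474 of 5819 in the cold and 575 of 5685 in recovery had an unadjusted p below 0.05. The medians of the lists were −0.27, 0.46 and −0.01 in the cold and −0.29, −0.0023 and 0.03 in recovery. In the change between the phases, passed by 2.07% of all frames, 1 of 20 enzymes passed, ARO9 (YHR137W), an aromatic aminotransferase, higher in recovery relative to the cold (1.58 ± 0.42, SE, adjusted p = 0.0243). And 1 of 28 transporters passed, UGA4 (YDL210W), the permease for 4-aminobutyrate, lower in recovery relative to the cold (−2.28 ± 0.62, adjusted p = 0.0283); its dGLN3 flasks ran from −0.53 to 6.12 at t30 and from −6.19 to 0.86 at t90. Against t0, ARO10 (YDR380W), a decarboxylase of the Ehrlich pathway, was lower in dGLN3 at t60 (−1.89 ± 0.41, adjusted p = 0.0467 in limma). It was 1 of 22 enzymes to pass there, against 0.494% of all frames. In wild type at t60 ARO10 did not pass but averaged −1.78 (flasks −2.37 to −1.29), beside dGLN3 flasks of −2.99 to −1.37. No list gene passed in dGLN3 at t120, against 0.626% of all frames. There 2 of 22 enzymes, 5 of 29 transporters, 0 of 26 regulators and 876 of 6072 frames had an unadjusted p below 0.05. In wild type at t60, where 15.7% of all frames passed, the asparagine synthetase gene ASN1 (1.58 ± 0.33, adjusted p = 0.00157), the amino acid permease genes AGP1 (1.64 ± 0.52) and BAP2 (1.36 ± 0.46), the proline regulator gene PUT3 (1.78 ± 0.37, adjusted p = 0.00151), GZF3 (1.22 ± 0.35), a GATA repressor, and LEU3 (0.95 ± 0.31) were higher. The aminopeptidase gene LAP4 (−2.17 ± 0.69), the aspartate aminotransferase gene AAT2 (−1.87 ± 0.50), the peptide transporter gene PTR2 (−1.37 ± 0.41), ATO3 (−1.94 ± 0.51) and ARG82 (−1.59 ± 0.36) were lower. At t120 in wild type, where 2.69% of all frames passed, the vacuolar protease gene PEP4 (2.57 ± 0.40, adjusted p = 0.000271) was higher, and DCG1 (−1.22 ± 0.28) and the oligopeptide transporter gene OPT1 (−2.02 ± 0.38) were lower.

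Between recovery and cold over the strains, 69.7% of all frames passed, and the share of each list that passed was near that. Of 20 enzymes 13 were higher and 2 lower in recovery. LAP4 (3.25 ± 0.19, SE), PEP4 (2.06 ± 0.23), UGA1 (1.80 ± 0.15), the 4-aminobutyrate transaminase gene, and AAT2 (1.80 ± 0.18) were among the higher, and the list's median was 0.75, beside 0.02 over all frames. Of 28 transporters 6 were higher and 14 lower; PTR2 rose by 2.10 ± 0.18, and the purine-cytosine permease gene FCY2 (−1.70 ± 0.19) and the amino acid permease genes BAP3 (−1.51 ± 0.17) and TAT1 (−1.42 ± 0.16) fell, with a list median of −0.28. Of 23 regulators 6 were higher and 10 lower: GAT1, the other GATA activator of these genes, was higher by 2.22 ± 0.33 and ARG82 by 0.72 ± 0.10, and GZF3 (−1.31 ± 0.16) and STP1 (−0.60 ± 0.10) were lower, with a list median of 0.0078. The 10 lower include GLN3, whose average holds the ratios of dGLN3, the strain without the gene, and is not given. The adjusted p of each gene given a value here was at most 2.36e-08 in limma.

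How alike the members' courses were is described by Pearson correlation over the 34 strain and time means. The points share flasks and strains, so no test is given, and CAR2 is left out for its missing group. GDH1 and CAR1 were most alike (r = 0.779), followed by GLN1 and GDH1 (0.688), GLN1 and CAR1 (0.669) and CAR1 and PUT1 (0.627). The lowest was −0.28, between GAP1 and MEP1. The 3 MEP genes correlated little with each other (0.053 to 0.215), and GAP1 more with GLN1 (0.549) than with any of them (−0.28 to 0.406). Of 5922 other frames, those most like GLN1 were YHM2 (0.755), ADE13 (0.717) and TEM1 (0.707). For GDH1 they were ADH3 (0.781), CAR1 and ABP1 (0.775), and for CAR1 they were FIT2 (0.845), TAF9 (0.84) and DFM1 (0.837). PUT1 was followed by XKS1 (0.845), MIT1 (0.813) and CBT1 (0.811), and DUR1,2 by YPT1 (0.72), TSA1 (0.713) and PDC6 (0.705). The nearest to GAP1 were FUR4 (0.631), MTD1 (0.622) and NCA2 (0.614). For the ammonium permeases they were FRE3 (0.621), IME4 (0.619) and RRT6 (0.617) for MEP1, YMR085W, YTA7 (0.602) and RAX2 (0.576) for MEP2, and YLL020C (0.525), GYP1 (0.511) and ISU1 (0.504) for MEP3.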

How the data were processed

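The 2-colour oligonucleotide arrays gave 137 columns, one per array. The scores are the authors' deposited values, per the file headers and labels; per the submitters' processing notes limma was used (version not given), and values per array ranged from 5041 to 6158, with 3.95% missing. Scores were used as deposited. In R 4.3.3 each frame was fitted by generalised least squares over the arrays with a value, with flask as a random block. limma 3.58.1 supplied the flask correlation (0.3 over all strains, 0.2 for dGLN3 and wild type together, 0.24 for wild type, 0.11 for dGLN3) and the moderated variances, and p-values were Benjamini-Hochberg adjusted over all frames tested. The least-squares step replaced limma's lmFit because of the missing values. It was run on values simulated from the model it fits, with the flask correlation and variances of these data. Those values held no arrays resembling the other phase, so the run does not show how the fit handles such arrays. A group needed at least 2 flasks. The planned tests assumed a log ratio, and the unit proved to be a score, so no fold is given. Members and lists were chosen with earlier results of these data known; the list genes named are at most 4 per list and comparison by adjusted p among those that passed, and GLN3 was added as the deleted gene. Deviations of arrays from their group means correlated between times of a flask (median r = 0.307, above 0.1 in 215 of 250 pairs) and not between strains that share a flask number (median r = −0.0119, above 0.1 in 59 of 333), so flask numbers pair times within a strain and not strains. Alternatives covered blocks, dye, centring, missing frames, chips, coatings, flasks, arrays and the sign of dHMO1. The number of arrays limits the precision.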

Additional observations from a re-analysis of the deposited data

Results flagged for a closer look

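Among the 298 groups of 4 or 5 flasks examined for the 10 genes, 17 held a flask far from the others by Dixon's criterion, and chance alone gives about 1 in 20 groups. For dGLN3, GAP1 in flask 1 scored 2.46 at t60 (the other flasks 0.37 to 0.64) and 1.32 at t90 (0.20 to 0.37), MEP3 in flask 2 scored 1.99 at t120 (0.65 to 0.83), and CAR2 in flask 4 scored 0.91 at t120 (−0.89 to −0.69). For wild type, GAP1 in flask 1 scored 0.19 at t15 (1.97 to 2.23). CAR2 in wild type scored −2.87 in flask 2 at t15 (−0.68 to −0.24), −2.16 in flask 0 at t90 (−0.06 to 0.73) and 0.21 in flask 4 at t120 (1.68 to 2.23).

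Of the other strains, dCIN5 scored 4.39 for GDH1 in flask 1 at t90 (the others −0.30 to 0.43), −1.63 for MEP3 in flask 4 at t30 (−0.29 to −0.03) and −0.22 for CAR1 in flask 3 at t60 (−2.79 to −2.47). dHAP4 scored −1.08 for GDH1 in flask 1 at t15 (0.42 to 0.64). dHMO1 scored 0.96 for GAP1 in flask 1 at t90 (−0.06 to 0.09) and −0.29 for MEP2 in flask 3 at t15 (0.12 to 0.19). dSWI4 scored −1.75 for CAR1 in flask 4 at t120 (0.52 to 0.68) and 2.78 for DUR1,2 in flask 3 at t120 (−0.26 to −0.02). dZAP1 scored −1.46 for DUR1,2 in flask 3 at t60 (0.08 to 0.19).

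Between strains, with phase means and all arrays as deposited, 1 difference for a member passed among those tested: CAR1 in recovery, by 1.99 in wild type minus the mean of the 6 deletion strains.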

How the results depend on the processing

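For 33 counts of members passing the test, 615 of 668 alternatives stayed within 1.5 times the main count and 53 did not; of 6246 alternative values for single genes none that had passed changed sign, 55 newly passed and 37 no longer did. The cause of these changes was not tested. In some alternatives fewer frames or flasks entered. The share of all frames passing under each alternative is not given here. A changed count can therefore not be called particular to the members. With no replicate block the count was 1 in place of 0 for dGLN3 minus the 6 others in the cold, for dGLN3 minus wild type in the cold and in recovery, and for dHMO1 in recovery, and 2 in place of 1 for wild type in recovery. With flask number as a fixed replicate block it was 1 in place of 0 for dGLN3 in the cold, dHMO1 in recovery and dSWI4 in the cold. The change of the dGLN3 difference had 1 in place of 0 on the Ontario chips, without dHMO1, and for t60 and t120 alone without the arrays resembling the other phase, and 2 on the PEG-coated slides and for t60 and t120 alone; CAR2, untested in the phase means, passed in both fits of t60 and t120 alone. With t120 alone, dGLN3 minus wild type in recovery had 1, with or without those arrays. In 1 fit of all strains the count was 1 in place of 0 for dGLN3 minus wild type in the cold and for dGLN3 at t90 and t120. On the Ontario chips wild type had 3 in place of 1 at t15, 1 in place of 0 at t90, 2 in place of 4 at t120 and 0 in place of 1 against the rest in recovery. Keeping frames measured on every array removed most members: 1 passed in the strain average at t15, t30, t60 and t120, 0 in recovery minus cold and 0 for wild type in recovery. Without the arrays resembling the other phase the strain average at t90 had 2 in place of 1. At an adjusted p below 0.01 it had 0, dGLN3 at t30 and wild type at t15 had 0, and wild type at t30 had 1. With the sign of dHMO1 flask 2 turned, dHMO1 had 2 in place of 0 in both phases.

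Only flasks of dGLN3 and wild type were left out in turn, and the shares of all frames passing in these fits are not given here either. The counts then ran from 0 to 1 for dGLN3 minus the 6 others in the cold, for the change of that difference, for dGLN3 minus wild type in both phases and for dGLN3 at t15, t30 and t120. They ran from 0 to 2 for wild type at t15 and against the rest in recovery, from 1 to 3 at t30, from 2 to 4 at t60 and from 3 to 6 at t120. The strain average had 4 at t15, 5 at t30, 6 at t60, 1 at t90 and 5 to 7 at t120, recovery minus cold had 5, and the other counts were 0 throughout.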
